A study of Mus musculus with 6 samples.

Results

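Type I interferon response genes are the genes that a cell switches on after interferon alpha or beta binds its receptor. They were taken as 41 listed interferon-stimulated genes, sorted by role and found by gene symbol in the table of counts, which lists genes by Entrez ID. Of 40808 gene IDs, 39374 (96.5%) had a mouse symbol in the RefSeq gene table, all 41 members were found, and all 41 passed the filter on low counts. The members comprised 9 sensors of nucleic acid, 4 transcription factors, 5 genes of the ISG15 system and related ubiquitin ligases, 15 antiviral effectors and 8 other interferon-induced genes.

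The labels name the RNA as that of leukaemia cells from the spleen of mice with transplanted bone marrow, whereas the markers given below are those of several spleen cell types in both groups. The 6 libraries were 3 labelled as given no Dox (replicates 4, 5 and 6) and 3 labelled as given Dox (replicates 10, 11 and 12). The study's title names NOTCH control through UVRAG, ITCH and the ESCRT sorting machinery. The transgenes or alleles of the leukaemia cells, the gene that Dox acts on, its dose and duration, and the strain, sex and age of the mice are not given in the sources used here. The labels do not say whether each library came from its own animal, so that p-values measure the spread between these libraries.

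Interferon alpha and beta bind a receptor made of IFNAR1 and IFNAR2, whose kinases JAK1 and TYK2 phosphorylate STAT proteins. A complex that contains STAT2 and IRF9 then binds the interferon-stimulated response element (ISRE) in front of many antiviral genes, and pairs of STAT proteins bind the gamma-activated site (GAS). The products sense viral nucleic acid, block viral replication and regulate the pathway itself, and in the spleen the interferon is known to come mainly from plasmacytoid dendritic cells and macrophages.

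The sequence that these factors read was looked for in RefSeq promoter windows (assembly GRCm38.p6, from 250 bases before to 50 bases after each start site), which 31 of the 41 members had. The ISRE core, GAAANNGAAA on either strand, was present in 15 of the 31 members (48.4%), in 444 of 10681 tested genes with a window (4.16%) and in 1131 of all 32851 windows (3.44%). The GAS, TTCNNNGAA, was present in 10 of the 31 members (32.3%), in 8.47% of the tested genes and in 8.30% of all windows. A match is a description of the letters only, and members were chosen as known interferon targets. The 11 upstream stretches below are shown because they span members that rose with Dox and members that did not, with the ISRE core (or its reverse complement, TTTCNNTTTC) in capitals, and for Irf1 the GAS. They lie at chr19:34583353-34583436 (Ifit3, plus strand), chr19:34607749-34607832 (Ifit3b, plus), chr5:120777705-120777754 (Oas3, minus), chr10:128270256-128270305 (Stat2, plus), chr7:104465200-104465249 (Trim30a, minus), chr12:26456543-26456592 (Rsad2, minus), chr19:34640765-34640833 (Ifit1, plus), chr11:53769904-53769952 (Irf1, plus), chr5:120907526-120907565 (Oas1a, minus), chr4:156200855-156200916 (Isg15, minus) and chr8:71537567-71537622 (Bst2, minus). None of the 11 stretches touched an annotated exon of GENCODE vM21. By the RefSeq gene positions, however, the stretches of Ifit3 and Ifit3b lay within the genes, which begin at 34583119 and 34607530. The stretch of Oas1a, a gene that ends at 120907544, lay partly within it. Each stretch is written from 5′ to 3′ on the strand of its gene.
Ifit3: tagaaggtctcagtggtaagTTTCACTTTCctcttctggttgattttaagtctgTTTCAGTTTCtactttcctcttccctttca
Ifit3b: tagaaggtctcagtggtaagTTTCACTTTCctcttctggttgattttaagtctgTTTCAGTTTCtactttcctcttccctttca
Oas3: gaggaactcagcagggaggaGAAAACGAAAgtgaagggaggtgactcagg
Stat2: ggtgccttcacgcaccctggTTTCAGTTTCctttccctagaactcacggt
Trim30a: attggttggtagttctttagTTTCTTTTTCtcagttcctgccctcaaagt
Rsad2: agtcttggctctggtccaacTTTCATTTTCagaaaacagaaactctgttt
Ifit1: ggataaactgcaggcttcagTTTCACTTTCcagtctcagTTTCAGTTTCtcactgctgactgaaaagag
Irf1: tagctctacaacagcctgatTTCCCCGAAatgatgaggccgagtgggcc
Oas1a: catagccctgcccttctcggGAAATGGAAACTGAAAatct
Isg15: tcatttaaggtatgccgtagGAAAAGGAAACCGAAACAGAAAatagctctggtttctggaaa
Bst2: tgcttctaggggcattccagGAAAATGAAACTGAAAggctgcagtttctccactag
The stretches of Ifit3 and Ifit3b were identical over 84 of 84 bases and held 2 cores each. Isg15 held 3 overlapping cores and Bst2 and Oas1a held 2 overlapping cores each. The last 3 genes were among the 8 members that did not pass the test below, and Ifit3, Ifit3b, Oas3, Stat2, Trim30a, Rsad2, Ifit1 and Irf1 rose. A core was found in 11 of the 22 windowed members that rose, in 4 of the 8 that did not pass the test and in 0 of the 1 that fell.

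**Figure D1:**
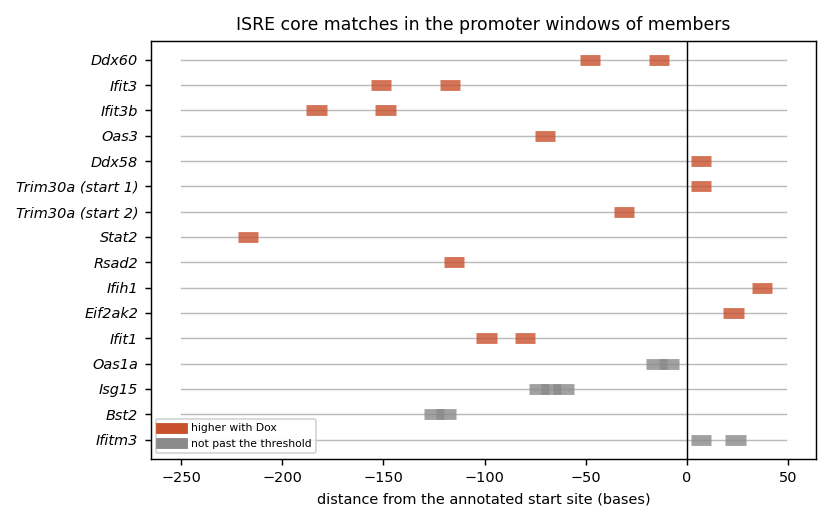
Matches to the ISRE core in the RefSeq promoter windows of the 15 members that held one, by distance from the annotated start site in bases (Trim30a has 2 start sites with a match). Grey lines are the windows, red bars are matches of members higher with Dox and grey bars those of members not past the threshold, and matches lie on both sides of the start site for both kinds of member.

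The libraries held 5541486 to 8725767 counts each, and 3 counts, used as the floor of detection, equal 0.309 to 0.608 CPM (a gene's counts as parts of its library, with the library size corrected for composition). The groups differed in more than Dox: haemoglobin genes took 8.61% to 9.04% of the counts without Dox and 14.1% to 15.9% with Dox, Xist had 193 to 324 counts against 3347 to 5669, and 4 Y-linked genes had 545 to 801 counts against 0 in every library with Dox. The labelled leukaemia cells carry no stated lineage, and the libraries did not hold markers of 1 lineage alone. Without Dox, 15 T cell markers summed to 3095 to 3274 CPM and 12 B cell markers to 37.2 to 44.1 CPM, and with Dox the sums were 294 to 372 and 2256 to 2460 CPM. Stromal and endothelial markers summed to 393 to 433 CPM without Dox and 772 to 874 CPM with Dox. Within this list of 10 genes, 4 rose and 2 fell in the test below. Much of the higher sum lay in the chemokine genes Ccl21a (means 2.28 and 227 CPM) and Cxcl13 (means 2.50 and 115 CPM). Effects of Dox, of these cell populations and of the sex-linked difference cannot be told apart in this design. In bulk RNA, moreover, fewer cells of a type and less RNA per cell cannot be told apart.

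Most interferon response genes were higher with Dox. In the edgeR quasi-likelihood test, 32 of 41 members were higher with Dox (adjusted p under 0.05), 1 was lower and 8 did not pass. Over all 14110 tested genes, 45.6% passed in either direction, 23.6% were higher and 22.1% were lower. The 3 libraries with Dox all lay above the 3 without in 32 members, against 30.0% of tested genes, and all below in 2 members, Isg20 and Ifitm3, against 29.6%. The median log2 fold change of the members was 1.98 (quartiles 1.12 and 2.87), beside 0.07 over all tested genes (quartiles -0.95 and 1.16). A change of more than 1 on the log2 scale was seen in 31 of the 32 higher members, and Adar rose by 0.87.

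Summed over all 41 members, the level was 1082, 1081 and 1048 CPM without Dox and 2579, 2739 and 2723 CPM with Dox, a ratio of means of 2.50. The same ratio was 4.06 for the sensors, 3.78 for the transcription factors, 1.34 for the ISG15 system, 1.81 for the effectors and 4.85 for the other induced genes. The libraries were made from the 3′ end of each mRNA, with about 1 fragment for each transcript, so CPM were not scaled by transcript length.

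**Figure D2:**
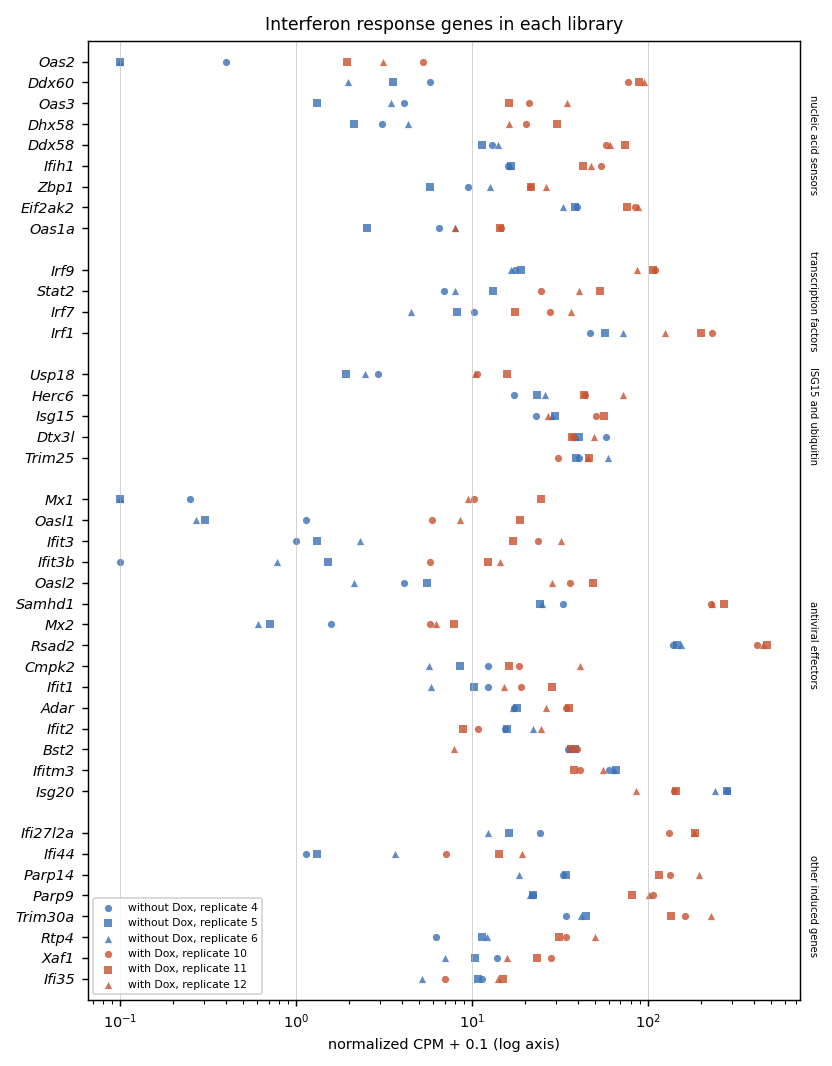
Normalized CPM plus 0.1 (log axis) of each of the 41 members in each of the 6 libraries, grouped by role and sorted by fold change. Blue symbols are the 3 libraries without Dox and red symbols the 3 with Dox, and the red symbols lie to the right of all blue ones in 32 members.

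The 4 transcription factors among the members were all higher with Dox. All 4 passed the test (100% called, beside 45.6% of all tested genes). Irf9 and Stat2 are the DNA-binding and activating partners of the interferon-activated complex. Irf7 amplifies interferon production, and Irf1 also answers to interferon gamma. Irf9 (Entrez 16391, chr14:55603985-55610030; RefSeq positions of GRCm38.p6 are given here and below) measured 17.6, 19.0 and 16.6 CPM without Dox and 110.0, 107 and 86.6 CPM with Dox (log2 fold change 2.51, SE 0.20, adjusted p = 9.58e-06). The lowest library with Dox was several times the highest without Dox. Stat2 (Entrez 20847, chr10:128270498-128292853) measured 6.86, 13.2 and 7.97 CPM without Dox and 24.8, 53.4 and 40.6 CPM with Dox (log2 fold change 2.09, SE 0.37, adjusted p = 0.00133). Irf7 (Entrez 54123, chr7:141263183-141266499) measured 10.1, 8.11 and 4.41 CPM without Dox and 27.6, 17.6 and 36.6 CPM with Dox (log2 fold change 1.85, SE 0.40, adjusted p = 0.00435). The groups of both genes were separate, but the libraries with Dox spread widely, and the library that was highest for Stat2 was lowest for Irf7. Irf1 was the factor with most counts (Entrez 16362, chr11:53770014-53778374) and measured 47.2, 57.4 and 72.4 CPM without Dox and 231, 202 and 125 CPM with Dox (log2 fold change 1.66, SE 0.26, adjusted p = 0.000589). Its value in replicate 12 was the lowest of the 3 with Dox and still lay above every library without Dox. The exons of Irf9 overlap those of Rnf31 on the same strand, and those of Irf7 and Irf1 overlap genes on the other strand, so that some of their reads could be shared depending on the counting settings, which are not given in the sources used here.

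Most of the listed sensors, which chiefly recognise RNA, were also higher. Of the 9 sensors, 8 rose (88.9% called, beside 45.6% of all tested genes) and 1, Oas1a, did not pass the test. All 9 fold changes were positive (median log2 fold change 2.33). Ddx58 (Entrez 230073, chr4:40203777-40239825), which encodes the RNA helicase RIG-I, measured 12.98, 11.3 and 13.9 CPM without Dox and 58.0, 73.9 and 60.8 CPM with Dox (log2 fold change 2.33, SE 0.23, adjusted p = 3.15e-05). Ifih1 (Entrez 71586, chr2:62595618-62646255), the related sensor MDA5 of long double-stranded RNA, measured 15.97, 16.6 and 16.4 CPM without Dox and 54.2, 42.7 and 47.6 CPM with Dox (log2 fold change 1.56, SE 0.22, adjusted p = 0.000353). Dhx58, the third helicase of the family, which modulates the other sensors, measured 2.98, 2.03 and 4.24 CPM without Dox and 20.1, 30.6 and 16.1 CPM with Dox (log2 fold change 2.84, SE 0.43, adjusted p = 0.000472). All 3 helicases were therefore separate between the groups, with the library with Dox that was highest being replicate 11 for Ddx58 and Dhx58 and replicate 10 for Ifih1. Eif2ak2, the kinase PKR that stops translation when it binds double-stranded RNA, measured 39.4, 38.5 and 33.1 CPM without Dox and 84.9, 76.3 and 88.0 CPM with Dox (log2 fold change 1.17, SE 0.18, adjusted p = 0.000605). Zbp1, a sensor of Z-form nucleic acid that can trigger cell death, measured 9.40, 5.67 and 12.5 CPM without Dox and 21.4, 21.7 and 26.2 CPM with Dox (log2 fold change 1.32, SE 0.35, adjusted p = 0.0113). Zbp1 rested on replicate 5 without Dox, the lowest library, and without it the log2 fold change was 1.009 (adjusted p = 0.0655).

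Among the other sensors, Ddx60, a helicase related to RIG-I signalling, rose from 3.66 ± 1.91 CPM to 87.4 ± 9.59 CPM (means ± SD, n = 3 in each group, here and below, with log2 fold change 4.55, SE 0.35, adjusted p = 8.81e-06). The oligoadenylate synthetases make the messenger that activates RNase L. Oas3 rose from 2.88 ± 1.47 CPM to 24.0 ± 9.65 CPM (log2 fold change 3.03, SE 0.50, adjusted p = 0.000788). Oas2 had 2, 0 and 0 counts without Dox and 38, 18 and 23 with Dox, a ratio of 28.1 for the summed counts (95% counting interval 7.52 to 236). Its call was lost without replicate 5 (adjusted p = 0.101) or 6 (0.0822) of the group without Dox or replicate 10 with Dox (0.0541), and its fitted log2 fold change was 7.57 without replicate 4. Oas1a measured 5.61 ± 2.86 CPM without Dox and 12.3 ± 3.77 CPM with Dox with overlapping groups (log2 fold change 1.12, SE 0.51, adjusted p = 0.101), and 43.6% of the 50-base words in its last 400 bases also occur in Oas1g, so its counts are uncertain. Without replicate 12 of the Dox group Oas1a reached 1.33 (adjusted p = 0.0494). With every library kept, it passed with scaling by library size only (adjusted p = 0.0441) and with at least 10 counts in every library (0.0479).

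Of the 5 listed genes of the ISG15 system and related ligases, 2 rose and 3 did not pass the test (40% called, beside 45.6% of all tested genes). ISG15 is a ubiquitin-like protein that is attached to other proteins, in the mouse mainly by the ligase HERC6, and removed by USP18, which also damps signalling at IFNAR2. Usp18 and Herc6 were those that rose. Usp18 (Entrez 24110, chr6:121245906-121270917) measured 2.84, 1.82 and 2.37 CPM without Dox and 10.6, 15.7 and 10.3 CPM with Dox (log2 fold change 2.37, SE 0.48, adjusted p = 0.00272). Herc6 measured 17.3, 23.5 and 26.1 CPM without Dox and 43.8, 43.2 and 72.7 CPM with Dox (log2 fold change 1.26, SE 0.28, adjusted p = 0.00496). For both genes the groups were separate, and the highest library was replicate 11 for Usp18 and replicate 12 for Herc6. Isg15 itself (Entrez 100038882, chr4:156199424-156200818) measured 22.98, 29.6 and 28.6 CPM without Dox and 51.0, 56.5 and 26.9 CPM with Dox (log2 fold change 0.73, SE 0.30, adjusted p = 0.0698). Replicates 10 and 11 lay above all libraries without Dox and replicate 12 lay among them, and without replicate 12 the log2 fold change was 0.98 (adjusted p = 0.00347). With every library kept, Isg15 passed with upper-quartile factors (adjusted p = 0.0438) and with scaling by library size only (0.0189). It also passed with at least 10 counts in every library (0.0303) and in limma-voom with group weights (0.0405). Trim25, a ligase that acts in RIG-I signalling, measured 40.7, 38.9 and 59.7 CPM without Dox and 30.6, 46.2 and 45.6 CPM with Dox (log2 fold change -0.19, SE 0.25, adjusted p = 0.582). Dtx3l, a ubiquitin ligase that works in a complex with PARP9, measured 57.9, 40.5 and 39.0 CPM without Dox and 37.6, 36.9 and 49.6 CPM with Dox (log2 fold change -0.15, SE 0.24, adjusted p = 0.636). The groups of Trim25 and Dtx3l were interleaved, and the sign of both changes turned under scaling by library size only (0.11 and 0.16), as did that of Dtx3l without replicate 4 of the group without Dox (0.012). Outside the members, Uba7, the activating enzyme of ISG15 conjugation, rose from 28.2 ± 3.66 CPM to 80.4 ± 15.8 CPM (log2 fold change 1.51, SE 0.22, adjusted p = 0.000371) and Ube2l6, its conjugating enzyme, from 50.5 ± 1.78 CPM to 172 ± 15.3 CPM (log2 fold change 1.77, SE 0.16, adjusted p = 2.50e-05).

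Antiviral effectors showed the widest range. Of 15, 11 rose, 1 fell and 3 did not pass (80% called, beside 45.6% of all tested genes), with a median log2 fold change of 1.62. Rsad2 (Entrez 58185, chr12:26442743-26456452), which encodes viperin, an enzyme that makes a chain-terminating nucleotide, measured 140.1, 146 and 154 CPM without Dox and 420.4, 479.7 and 452 CPM with Dox (log2 fold change 1.62, SE 0.15, adjusted p = 2.12e-05). The 6 libraries formed 2 tight groups. Samhd1 (Entrez 56045, chr2:157097534-157135096), which degrades deoxynucleotides and restricts retroviruses, measured 32.8, 24.3 and 25.1 CPM without Dox and 230.4, 273 and 232 CPM with Dox (log2 fold change 3.16, SE 0.19, adjusted p = 2.83e-06), with all libraries with Dox far above those without. Mx1 (Entrez 17857, chr16:97447035-97462906), a dynamin-like GTPase that blocks influenza viruses, had 1, 0 and 0 counts without Dox and 75, 240 and 71 with Dox. Its summed counts differed by a ratio of 275 (95% counting interval 48.99 to 10872), and its fitted log2 fold change of 7.64, the top of the members, depends on the prior count. It was 9.70 without replicate 4 of the group without Dox and 7.001 without replicate 11 with Dox. Isg20 (Entrez 57444, chr7:78913396-78920396), an exonuclease of single-stranded RNA, was the only member that fell: it measured 282, 281 and 241 CPM without Dox and 141, 146 and 85.4 CPM with Dox (log2 fold change -1.11, SE 0.22, adjusted p = 0.00224). Every library with Dox lay below every library without, with replicate 12 lowest.

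Of the other effectors, the IFIT proteins bind foreign RNA, and their genes lie near each other on chromosome 19. Ifit3 rose from 1.44 ± 0.682 CPM to 24.2 ± 7.47 CPM (log2 fold change 4.06, SE 0.47, adjusted p = 9.59e-05) and Ifit3b from 0.699 ± 0.710 CPM to 10.8 ± 4.51 CPM (log2 fold change 3.98, SE 0.93, adjusted p = 0.00622). Ifit3 shares 19.1% of the 50-base words at its 3′ end with Ifit3b, so that their counts are not fully separate. The log2 fold change of Ifit3b was 3.30 with replicate 4 (no Dox) left out and 4.92 with replicate 5 (no Dox) left out. Ifit1 rose from 9.38 ± 3.30 CPM to 20.9 ± 6.94 CPM (log2 fold change 1.16, SE 0.39, adjusted p = 0.0340), a call that was lost without any 1 of replicates 4, 5, 6, 10 and 11 (adjusted p between 0.0567 and 0.162). Ifit2, their neighbour, measured 17.8 ± 3.83 CPM without Dox and 14.7 ± 8.55 CPM with Dox with overlapping groups (log2 fold change -0.28, SE 0.42, adjusted p = 0.616). Of the 4 Ifit genes 3 therefore rose and Ifit2 did not pass the test, and the sign of Ifit2 turned under scaling by library size only (0.014). Without replicate 12 with Dox, Ifit2 stood at -0.88 (adjusted p = 0.0517).

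Oasl1 and Oasl2, relatives of the oligoadenylate synthetases, rose by 4.43 (SE 0.84, adjusted p = 0.00194) and 3.30 (SE 0.40, adjusted p = 0.000135) on the log2 scale. Oasl1 stood at 5.72 without replicate 4 of the group without Dox and at 3.79 without replicate 11 with Dox, and its call was lost with limma-voom (adjusted p = 0.0531). Mx2, from 0.870 ± 0.542 CPM to 6.58 ± 1.10 CPM, rose by 2.87 (SE 0.74, adjusted p = 0.01004) and lost its call without replicate 5 of the group without Dox (adjusted p = 0.0606), and it stood at 3.48 without replicate 4. Cmpk2, a nucleotide kinase next to Rsad2, rose by 1.52 (adjusted p = 0.0191). Its highest library was replicate 12 with Dox, without which it stood at 0.96 (adjusted p = 0.0676), and the call was also lost without replicate 5 (adjusted p = 0.0833) or 6 (0.105) of the group without Dox. Adar, the enzyme that edits double-stranded RNA, rose by 0.87 (adjusted p = 0.0163) and lost its call without any 1 of the 3 libraries without Dox (adjusted p between 0.0843 and 0.0878). Bst2, which encodes tetherin, a protein that holds budding virus at the cell surface, measured 35.4, 38.5 and 35.4 CPM without Dox and 39.5, 36.4 and 7.78 CPM with Dox (log2 fold change -0.38, SE 0.47, adjusted p = 0.540). Its 5 other libraries lay within 35.4 to 39.5 CPM and replicate 12 with Dox fell far below them, and without that library the log2 fold change was 0.042. Ifitm3, which hinders fusion of viral and cell membranes, measured 63.4 ± 2.93 CPM without Dox and 44.9 ± 9.56 CPM with Dox with all libraries with Dox below those without (log2 fold change -0.50, SE 0.21, adjusted p = 0.0752). Without replicate 12 it fell by 0.70 (adjusted p = 0.00807), and with no filter its log2 fold change was -0.64 (adjusted p = 0.0475). Of its 3′ words, 12.3% occur in Gm7676 or Ifitm1.

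Of the 8 other induced genes 7 rose and Ifi35 did not pass the test (87.5% called, beside 45.6% of all tested genes). Ifi27l2a (Entrez 76933, chr12:103433873-103443680), a small interferon-induced membrane protein, measured 24.5, 16.2 and 12.2 CPM without Dox and 133, 186 and 183 CPM with Dox (log2 fold change 3.24, SE 0.28, adjusted p = 1.67e-05). Trim30a (Entrez 20128, chr7:104409025-104465193), a mouse TRIM protein that restrains innate signalling, measured 34.2, 44.6 and 41.9 CPM without Dox and 163, 136 and 230.4 CPM with Dox (log2 fold change 2.14, SE 0.23, adjusted p = 6.28e-05). Parp14 (Entrez 547253, chr16:35831892-35871518), a mono-ADP-ribosyltransferase, measured 32.8, 34.0 and 18.5 CPM without Dox and 135, 116 and 195 CPM with Dox (log2 fold change 2.38, SE 0.29, adjusted p = 0.000125). In each of these genes the lowest library with Dox lay well above the highest without Dox. Parp9, the partner of DTX3L, rose from 21.9 ± 0.620 CPM to 96.7 ± 13.4 CPM (log2 fold change 2.14, SE 0.20, adjusted p = 2.24e-05). Ifi44 rose by 2.78 (adjusted p = 0.00529; 3.47 without replicate 6 of the group without Dox) and Rtp4, a chaperone of membrane receptors, by 1.98 (adjusted p = 0.00108). Xaf1, a pro-apoptotic gene, rose by 1.11 (adjusted p = 0.0297), a call lost without any 1 of replicates 5, 6, 10 and 11 (adjusted p between 0.0636 and 0.156). Ifi35 measured 11.3, 10.7 and 5.09 CPM without Dox and 6.94, 15.03 and 14.0 CPM with Dox, with overlapping groups and a log2 fold change of 0.41 (adjusted p = 0.499).

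**Figure D3:**
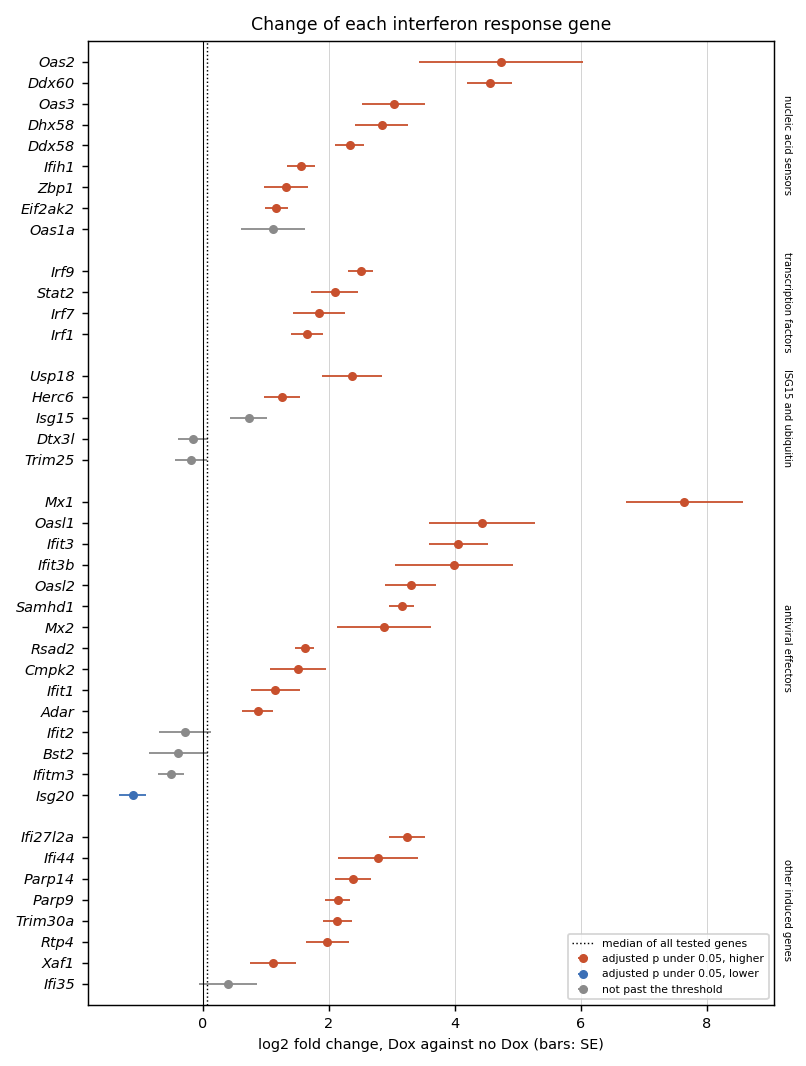
Log2 fold change of each member with Dox against no Dox (points, with bars for the SE), grouped by role. Red points passed the test upward (32 members), the blue point downward (Isg20), grey points did not pass, and the dotted line at 0.07 is the median of all tested genes.

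No library with Dox was the highest for all members. Among the libraries with Dox, replicate 10 was the highest for 8 of the 41 members (19.5%, beside 29.9% of all tested genes). Replicate 11 was the highest for 17 (41.5%, beside 32.0%) and replicate 12 for 16 (39.0%, beside 38.1%). The median coefficient of variation of the members was 32.8% without Dox and 28.0% with Dox, beside 18.8% and 33.2% over all tested genes. The lowest of the 3 was replicate 10 for 13 members (31.7%, beside 33.2% of all tested genes), replicate 11 for 15 (36.6%, beside 32.6%) and replicate 12 for 13 (31.7%, beside 34.3%). Isg15, Bst2, Isg20, Xaf1 and Irf1, picked after their values were seen, were among the 13 that were lowest in replicate 12. B2m, the light chain of MHC class I and itself interferon-stimulated, had 16360 counts there against 54507 and 47832 in replicates 10 and 11. Without replicate 12, 33 members were higher and 2 lower, and leaving out any other library gave 25 to 30 higher and 1 lower.

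Ratios of 2 members within a library do not depend on scaling. For 8 pairs of neighbours or partners the ratios of both groups were compared by exact two-sided permutation of the libraries, which cannot give a p under 0.1 for 3 against 3. The pairs Ifit3 with Ifit3b and Mx1 with Mx2 had libraries at 0 counts and gave no ratio. Parp9 and Dtx3l overlap at their 5′ ends on opposite strands and share a protein complex, and Parp9 counts per Dtx3l count were 0.384, 0.550 and 0.543 in the libraries without Dox and 2.85, 2.21 and 2.05 in those with Dox. This difference of 2.27 on the log2 scale (exact permutation p = 0.1, adjusted over 6 pairs 0.2) was the largest of the pairs, and the groups were separate. The ratio of Ddx58 to Ifih1 moved from a geometric mean of 0.777 to 1.33 (log2 difference 0.78, exact permutation p = 0.1, adjusted 0.2). Isg15 per Usp18 moved from 11.7 to 3.56 (log2 difference -1.71, exact permutation p = 0.1, adjusted 0.2), and the groups were separate. Oasl2 per Oasl1 moved by -1.51 and Irf7 per Irf9 by -0.63 (exact permutation p = 0.2, adjusted 0.24, for each), and their groups overlapped. The difference for Oasl2 per Oasl1 was -2.25 without replicate 4 and -0.85 without replicate 5, both of the libraries with no Dox. Rsad2 per Cmpk2 was 17.6 without Dox and 19.5 with Dox (log2 difference 0.15, exact permutation p = 0.8), and this difference was below the spread of the libraries and changed sign without replicate 4 (-0.16) or replicate 11 (-0.15).

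The interferon genes themselves were nearly absent from the counts. Ifnb1 had 0 counts in every library, which allows up to 3 counts, and of 18 type I interferon genes only Ifnk passed the filter. Ifnk, interferon kappa, had 0 counts in each library without Dox and 12, 21 and 23 with Dox, at least 4.36-fold higher against a floor of 3 counts per library (adjusted p = 0.00891). This call was lost without replicate 4 or 5 of the group without Dox, which left 0 type I interferon genes called. The same 2 counts in replicate 5 without Dox appeared in 8 interferon alpha genes, Ifnz had 6 and 4 counts in replicates 5 and 6 without Dox, and Ifna11 had 21 counts in replicate 11 with Dox alone. Ifng, interferon gamma, had 3, 2 and 0 counts without Dox and 0 with Dox, and Ifnl2 and Ifnl3 had 0 throughout. Apart from Ifnk, the interferon genes were too low to be tested at this depth.

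Of 8 tested genes for receptors and kinases of interferon signalling, 6 rose and 0 fell (75% called, beside 45.6% of all tested genes called and 23.6% called higher), and their median was 1.13 on the log2 scale. The list also holds receptors for type II and III interferon and interleukin 10, and Ifngr1, Ifngr2 and Il10rb were 3 of the 6 that rose. Of the 4 genes of the type I receptor and its kinases 3 rose. The receptor subunits Ifnar1 (31.5 ± 2.76 CPM to 56.8 ± 14.2 CPM, log2 fold change 0.85, SE 0.23, adjusted p = 0.0133) and Ifnar2 (54.7 ± 5.82 CPM to 143 ± 15.1 CPM, log2 fold change 1.39, SE 0.18, adjusted p = 0.000175) both rose. Jak1 rose from 177 ± 5.34 CPM to 340.0 ± 31.3 CPM (log2 fold change 0.94, SE 0.15, adjusted p = 0.000617). Tyk2 measured 9.84 ± 0.957 CPM without Dox and 17.3 ± 10.6 CPM with Dox with overlapping groups (log2 fold change 0.81, SE 0.51, adjusted p = 0.222). With a test against a log2 fold change of 1, 2 of these 8 receptors and kinases were called, beside 22.4% of all tested genes.

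Of 22 tested genes that act upstream of interferon production, 10 rose and 0 fell (median 0.95), so that 45.5% were called, all higher, beside 23.6% of all tested genes called higher and 45.6% called in either direction. Irf8, a factor of myeloid and B cells, measured 30.4, 38.3 and 26.6 CPM without Dox and 603, 578 and 506 CPM with Dox (log2 fold change 4.15, SE 0.20, adjusted p = 1.05e-06). Irf5, which acts downstream of Toll-like receptors, rose from 4.57 ± 1.76 CPM to 76.6 ± 5.89 CPM (log2 fold change 4.04, SE 0.30, adjusted p = 6.44e-06), and Unc93b1, which carries those receptors to endosomes, from 17.4 ± 2.48 CPM to 119 ± 41.9 CPM (log2 fold change 2.78, SE 0.29, adjusted p = 5.47e-05). The groups of these 3 genes were separate. Tlr7, the endosomal sensor of single-stranded RNA, rose from 1.69 ± 0.496 CPM to 23.6 ± 9.72 CPM (log2 fold change 3.78, SE 0.46, adjusted p = 0.000126), whereas Tlr9, its DNA-sensing relative, had 0, 0 and 0 counts without Dox and 1, 3 and 7 with Dox and was not tested. The adaptor Myd88 rose by 1.41 (adjusted p = 0.00586) and Tank, a regulator of the kinase TBK1, by 1.07 (adjusted p = 0.00832). Zc3hav1, an antiviral protein that binds viral RNA in the cytosol, rose from 35.1 ± 2.86 CPM to 99.6 ± 14.1 CPM (log2 fold change 1.51, SE 0.19, adjusted p = 0.000175). Genes of the list that did not pass the test included Mavs, the adaptor of RIG-I and MDA5 (log2 fold change -0.45, adjusted p = 0.395), Cgas, listed as Mb21d1 in older tables (-0.49, adjusted p = 0.271), Sting1, formerly Tmem173 (0.22, adjusted p = 0.678), and Irf3, the factor they activate (-0.33, adjusted p = 0.411). Of 9 listed negative regulators 4 rose and 1 fell (55.6% called beside the same 45.6%, median 0.43), and 1 of the 4 was Uba7, which is no inhibitor. Socs1, the inhibitor of JAK kinases, had 158, 187 and 203 counts without Dox and 84, 39 and 10 with Dox, and its level fell from 32.0 ± 7.47 CPM to 5.59 ± 5.24 CPM (log2 fold change -2.52, SE 0.61, adjusted p = 0.00737).

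In a wider list of 78 interferon-stimulated genes outside the members, 75 were tested, of which 37 rose, 9 fell and 29 did not pass (61.3% called), with a median of 0.92. Over all tested genes, 45.6% were called, 23.6% higher and 22.1% lower. The difference between this list and the members was not tested. Among its abundant genes, the 3 with the greatest rise were Ms4a4c (1.23 ± 0.444 CPM to 36.8 ± 5.57 CPM, log2 fold change 4.87, SE 0.37, adjusted p = 8.36e-06), the chemokine Ccl5 (2.70 ± 1.36 CPM to 48.2 ± 11.2 CPM, log2 fold change 4.15, SE 0.40, adjusted p = 3.02e-05) and Slfn8 (5.96 ± 2.95 CPM to 57.8 ± 27.4 CPM, log2 fold change 3.26, SE 0.45, adjusted p = 0.000263). The 3 with the greatest fall were Ifi204 (148 ± 13.9 CPM to 30.1 ± 7.26 CPM, log2 fold change -2.30, SE 0.22, adjusted p = 2.96e-05), Slfn9 (99.5 ± 15.3 CPM to 21.4 ± 8.75 CPM, log2 fold change -2.22, SE 0.29, adjusted p = 0.000223) and Lgals9, which encodes galectin-9 (139 ± 6.38 CPM to 32.7 ± 12.6 CPM, log2 fold change -2.09, SE 0.26, adjusted p = 0.000164). Slfn8 and Slfn9 are members of 1 gene family and moved in opposite directions, and read sharing between them was not measured.

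**Figure D4:**
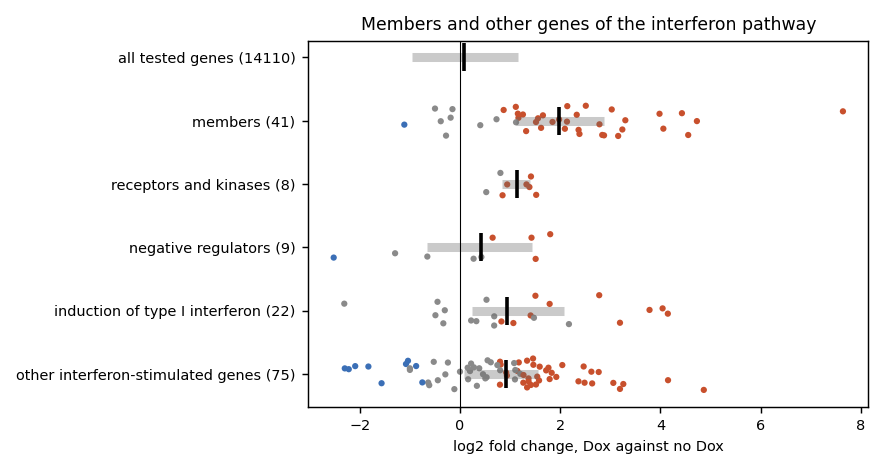
Log2 fold change with Dox against no Dox of the 41 members and of 4 other lists of the interferon pathway, with the number of tested genes in brackets. Points are genes (red higher, blue lower, grey not past the threshold), black ticks are medians and grey bars the quartiles, and the medians of 1.98 for the members, 1.13 for receptors and kinases, 0.43 for negative regulators, 0.95 for induction genes and 0.92 for other stimulated genes lie above the 0.07 of all tested genes.

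Markers of several cell types also differed between the groups, as did 45.6% of all tested genes, with 23.6% called higher and 22.1% lower. Of 15 T cell markers 13 fell and 0 rose, all 12 B cell markers and all 12 neutrophil markers rose, and the neutrophil markers summed to 53.9 to 70.9 CPM without Dox and 2309 to 2447 CPM with Dox. Ly6g, which defines neutrophils, had 0 counts in every library without Dox. Among 15 tested monocyte and macrophage markers 6 rose and 4 fell (66.7% called), with sums of 827 to 966 against 1129 to 1485 CPM (Clec4f was at or under the floor of 3 counts in both groups). All 6 tested dendritic cell markers rose (55.4 to 59.4 against 140.3 to 239 CPM). Plasmacytoid dendritic cells are marked by Siglech, which rose from 0.473 ± 0.819 CPM to 26.7 ± 5.17 CPM (log2 fold change 5.95, SE 0.86, adjusted p = 0.000371). Of the 6 tested markers of their list, which includes the member Bst2, 2 rose and 1 fell (50% called, with sums of 241 to 289 against 461 to 474 CPM). Tcf4, which B cells also express, held most of that sum and rose from 162 ± 19.1 CPM to 384 ± 9.44 CPM (log2 fold change 1.24, SE 0.15, adjusted p = 0.000141). The 7 other genes of the list summed to 97.99 to 115.3 CPM without Dox and 69.7 to 89.4 CPM with Dox, and Ccr9, also a T cell gene, fell from 57.9 ± 7.17 CPM to 11.7 ± 7.83 CPM (log2 fold change -2.32, SE 0.41, adjusted p = 0.00128). Natural killer markers summed to 348 to 399 CPM without Dox and 11.3 to 25.3 CPM with Dox, and of the 3 tested 1 rose and 1 fell, with Klra8 at 0 in both groups and Klre1 at 0 without Dox. Gzma, a granzyme that T cells also make, held nearly all of the sum, with 2356, 1683 and 2331 counts without Dox and 0 in each library with Dox. The 7 other natural killer markers summed to 3.56 to 6.49 CPM without Dox and 11.3 to 25.3 CPM with Dox, and Eomes rose from 0.610 ± 0.180 CPM to 9.34 ± 2.03 CPM (log2 fold change 3.88, SE 0.64, adjusted p = 0.000863). Megakaryocyte markers, of which 6 of 7 tested rose and 0 fell, summed to 67.3 to 77.3 CPM without Dox and 244 to 302 CPM with Dox. Of 11 tested erythroid markers 5 rose and 2 fell (63.6% called). Of 10 stromal and endothelial markers 4 rose and 2 fell (60% called). The chemokine genes Ccl21a, from 2.28 ± 1.71 CPM to 227 ± 39.4 CPM (log2 fold change 6.56, SE 0.43, adjusted p = 3.39e-06), and Cxcl13, from 2.50 ± 0.340 CPM to 115 ± 4.60 CPM (log2 fold change 5.52, SE 0.23, adjusted p = 5.37e-07), rose most in this list. The part of these cell types in the change of the interferon response genes was not tested.

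**Figure D5:**
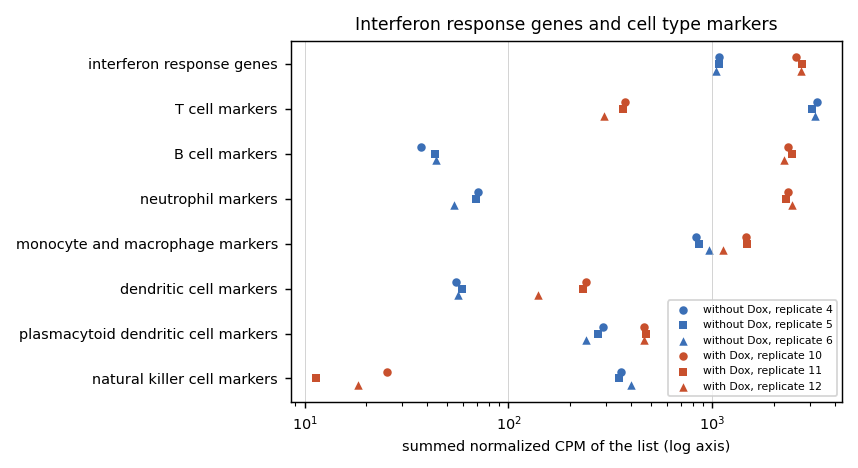
Summed normalized CPM (log axis) of the 41 interferon response genes and of 7 lists of cell type markers in each library, with blue symbols for the 3 libraries without Dox and red for the 3 with Dox. The members lie at 1048 to 1082 without and 2579 to 2739 with Dox, while T cell markers lie at 3095 to 3274 without and 294 to 372 with Dox and B cell and neutrophil markers are higher with Dox.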

How the data were processed

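RNA of 6 spleen libraries (3 without and 3 with Dox) was made into 3′ mRNA libraries with the forward QuantSeq kit, per the labels' protocols. The authors deposited 1 table of raw counts, in which rows are Entrez gene IDs and each library has its own column. STAR, featureCounts and build GRCm38 are named in the submitters' processing notes. Their versions and settings, the annotation, the treatment of multimapping reads, strand and molecular identifiers are not given in the sources used here, so floors and intervals cover counting error only.

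Testing used edgeR 4.0.16 (R 4.3.3): filterByExpr (minimum count 10, minimum total 15), TMM scaling, glmQLFit and glmQLFTest on all 6 libraries, and Benjamini-Hochberg adjustment over 14110 genes at 0.05. Normalized CPM use the TMM-scaled library sizes, and standard errors were derived from fold changes and F statistics. Alternatives were other scaling and filters, DESeq2 1.42.0, limma 3.58.1 (voom), a stricter threshold of 0.01, glmTreat against a log2 fold change of 1, and leaving out each library. Promoter windows and gene positions came from RefSeq tables of GRCm38.p6, and exon overlaps and 50-base words of the last 400 transcript bases from GENCODE vM21. Members with no window were Dhx58, Zbp1, Oas2, Usp18, Mx1, Mx2, Ifi27l2a, Rtp4, Parp9 and Parp14. In a simulation with 14110 genes, 62.7% of 185 genes given a log2 change of 2 were called, each in the correct direction, as were 14 of the 13249 genes left alone. The simulation changed far fewer genes than were called in the data (45.6% of those tested), so its rates do not measure those of this comparison.

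The members and gene lists were chosen with earlier results of these data known. Values in every library are given for the transcription factors, for Ddx58, Ifih1, Dhx58, Zbp1 and Eif2ak2, and in each other role for the 3 members with the highest mean CPM and those with the largest and smallest fold change. Isg15 and Bst2 were added after their values were seen. Pathway genes were a chosen set, of which 1 gene is not reported here and was left out of its list, plus the 3 other stimulated genes that changed most in each direction with separate groups and an average level at or above the median. Other genes named, B2m, Ifnk, Irf5, Irf8, Unc93b1, Myd88, Tank, Zc3hav1, Uba7, Ube2l6 and single cell markers among them, were picked after their values were seen. 1 listed marker symbol (Ahsp) was not found.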

Additional observations from a re-analysis of the deposited data

How the results depend on the processing

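The alternatives for the ratios and the cell markers were added after seeing the data. Of the 688 values of single members under the alternatives, 634 kept their direction and side of the threshold, 39 lost a call, 10 gained one and 5 turned sign. Members higher with Dox numbered 32 with RLE factors, 33 with upper-quartile factors, 34 with library size only, 29 with no filter, 32 with DESeq2, 31 with limma-voom, 33 with group weights, 25 at adjusted p under 0.01 and 25 with glmTreat. With at least 10 counts in every library, 25 of 32 tested members were higher. Without single libraries the number was 25 to 33. Members lower with Dox numbered 2 with no filter, 0 with glmTreat and 1 to 2 without single libraries. With no correction for composition (library size only) the all-gene median shifted by 0.31 and the share of calls that were higher from 51.6% to 64.3%, and the sign turned for Trim25 (0.11), Dtx3l (0.16) and Ifit2 (0.014). Without single libraries Dtx3l ranged from -0.35 to 0.012 (without replicate 4) and Bst2 from -0.74 to 0.042 (without replicate 12). The log2 ratio of Rsad2 to Cmpk2 lay between -0.16 and 0.56 without single libraries. With at least 10 counts in every library, calls fell to 0 type I interferon genes, 5 B cell, 4 neutrophil, 3 dendritic cell, 0 natural killer and 3 megakaryocyte markers, since fewer genes were tested. With globin, antibody, T cell receptor and mitochondrial genes removed, 4 erythroid markers were called. At adjusted p under 0.01, 2200 genes were higher. With glmTreat 3158 genes (22.4% of those tested) were called, 1647 higher and 1511 lower. Among them were 2 receptors and kinases, 23 other stimulated genes, 4 monocyte and macrophage markers, 0 erythroid and 3 megakaryocyte markers. Without single libraries, 4794 to 7025 genes were called, 2284 to 3396 higher and 2459 to 3629 lower, and 0 to 1 type I interferon genes. With a motif wider by 1 base, 5 of 31 members (16.1%) had an ISRE match, beside 2.84% of the tested genes with a window. Beyond the limits given, the cause of these changes was not tested. No paired analysis was possible because replicate numbers differ between both groups. Genes with under 3 counts in a library, such as Mx1, Oas2 and Oasl1 without Dox, have fold changes limited by depth.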

Other observations

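A few other interferon-stimulated genes, picked after their values were seen, are given as single values that describe no pathway as a whole. Tap1, a subunit of the peptide transporter for MHC class I, rose from 24.3 ± 1.03 to 72.7 ± 11.8 CPM (SD, n = 3, log2 fold change 1.58, edgeR adjusted p = 0.000196), whereas Psmb8, an immunoproteasome subunit, fell from 224 ± 10.6 to 63.0 ± 9.98 CPM (log2 fold change -1.83, edgeR adjusted p = 3.09e-05). Psmb9, its partner, had overlapping groups (log2 fold change -0.63, edgeR adjusted p = 0.338), with 214 counts in replicate 12 against 1134 and 1100 in replicates 10 and 11. Of 5 listed HIN-200 genes, whose products bind DNA, Ifi207 rose (1.14, edgeR adjusted p = 0.0130), Ifi211 fell (-1.08, edgeR adjusted p = 0.000583) beside Ifi204, and Ifi203 (0.20, edgeR adjusted p = 0.285) and Ifi205 (-0.44, edgeR adjusted p = 0.129) did not pass the test. The nuclear body genes Sp100, Sp110 and Sp140 rose by 1.46, 1.59 and 2.62, and the guanylate-binding protein genes Gbp2, Gbp3 and Gbp7 by 1.26, 2.04 and 0.80 on the log2 scale. Read sharing among the copies of these families was not measured.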
